A study of Mus musculus with 26 samples.

Results

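Dux, the transcription factor that starts the 2-cell programme of the mouse embryo, is itself held under control by factors that open or close its locus. A set of 10 such genes, of the 55291 in the deposited count table, was followed here, and all 10 had enough reads to be tested. They were taken by symbol, as factors known from the field to act upstream of Dux. The activators are Dppa2 and Dppa4. The restraints are Trim28 and Setdb1, Kdm1a, Chaf1a and Chaf1b, Smchd1, and Pcgf6 and Max. The deposited table lists the endogenous Dux locus as Duxf3, and its level was read beside those of its regulators.

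DPPA2 and DPPA4 are small nuclear proteins that bind each other and GC-rich DNA, and in embryonic stem cells (ESCs) they are needed for the sporadic entry into the 2-cell-like state in which Dux is on. TRIM28 (KAP1) is a corepressor that brings the H3K9 methyltransferase SETDB1 to repeats and to the Dux repeat array. KDM1A (LSD1) removes methyl groups from H3K4, CHAF1A and CHAF1B are the large subunits of the histone chaperone CAF-1, and SMCHD1 is an SMC-like protein that silences the X chromosome and the human and mouse double homeobox repeats. PCGF6 and MAX belong to PRC1.6, a variant Polycomb complex that keeps germline and early embryonic genes silent in ESCs.

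Poly(A) RNA was sequenced from R1 cells, a mouse ESC line kept in LIF on gelatin, in 26 libraries that form 13 groups of 2. Wild-type cells were untreated (ESC) or given DMSO, 0.53 µM retinoic acid (RA) for 48 h or 4 nM pladienolide B (PlaB), an inhibitor of the SF3B splicing complex, for 4 days, and cells with a doxycycline-induced transgene (4 µg/mL, 24 h) overexpressed Dux (Dux OE), its R70A mutant (Dux R70A OE) or Zscan4 (Zscan4 OE). Dux knockdown (Dux KD) cells were sequenced with RA, PlaB or Zscan4 OE, and cells lacking the super-enhancer of the Tdpoz cluster (SE KO) after Dux OE, RA or PlaB. The labels name neither the knockdown reagent nor the number of clones, 1 of the 2 SE KO RA libraries carries a wild-type genotype label against its title, and both Dux KD Zscan4 OE libraries are labelled as untreated with no time, so their group rests on their titles. No Dux KD or SE KO group without an induction was analysed here, so these cells have no uninduced control of their own. Nor was there a group with doxycycline alone or with an uninduced or empty transgene. Against ESC, the effects of doxycycline, of the transgenic line and of the overexpressed protein therefore cannot be told apart. The study calls the replicates of some of these comparisons biological without saying how they were grown.

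Totals ran from 14401452 to 39402840 counts, so that 3 counts, the floor used here, equal 0.0796 to 0.226 CPM (counts per one-millionth of the library size as scaled by TMM). Replicates differed by more than sampling noise in every group, most in SE KO PlaB and Dux KD Zscan4 OE. The summed level of 8 ESC markers was between 3237 and 8109 CPM, with no marker at 0 in any group. That of 6 fibroblast markers was between 9.785 CPM (PlaB) and 117.1 CPM (SE KO Dux OE). Of these, Postn and Dcn were both at 0 in 6 groups, DMSO and ESC among them. The other fibroblast markers stood in DMSO at 31.79 (Thy1), 2.68 (Col1a1), 0.05673 (Col1a2) and 0 CPM (Col3a1). In bulk RNA, fewer cells of a type and less RNA per cell cannot be told apart.

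Duxf3 lies at chr10:58229979-58232675 (GRCm38, minus strand) and was read first, because it is the knockdown target. Its level was 8.214 and 9.252 CPM in PlaB, 3.244 and 4.01 CPM in Dux OE, 2.158 and 2.748 CPM in RA, and 0.9233 and 1.747 CPM in Zscan4 OE. In ESC, DMSO, Dux KD Zscan4 OE, Dux KD PlaB and Dux R70A OE it was at or under 3 counts in both libraries. Against this floor its group mean was at least 51.3-fold higher in PlaB and at least 14.4-fold higher in RA than in DMSO. Relative to ESC the mean was at least 6.68-fold higher in Zscan4 OE and at least 18.1-fold higher in Dux OE. A single library can lie under such a bound of the mean. Mean Duxf3 was lower in Dux KD cells than in the same induction alone, by at least 48.7-fold in PlaB and 5.91-fold in Zscan4 OE. In RA the log2 fold change with Dux KD was -1.93 ± 0.46 (SE). SE KO cells also held less Duxf3, by a log2 fold change of -3.18 ± 0.50 in RA, -2.22 ± 0.35 in PlaB and -1.40 ± 0.37 in Dux OE. All these differences passed the edgeR quasi-likelihood test (adjusted p from 4.6e-11 to 0.00679), but in RA the Dux KD difference did not pass without Dux KD RA replicate 2 (-1.41, adjusted p = 0.0522), nor the SE KO difference in Dux OE without Dux OE replicate 1 (-1.24, adjusted p = 0.0755). Reads of a Dux transgene may or may not be counted on Duxf3, which was not tested, and the Dux R70A OE libraries held no Duxf3 read at all.

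**Figure D1:**
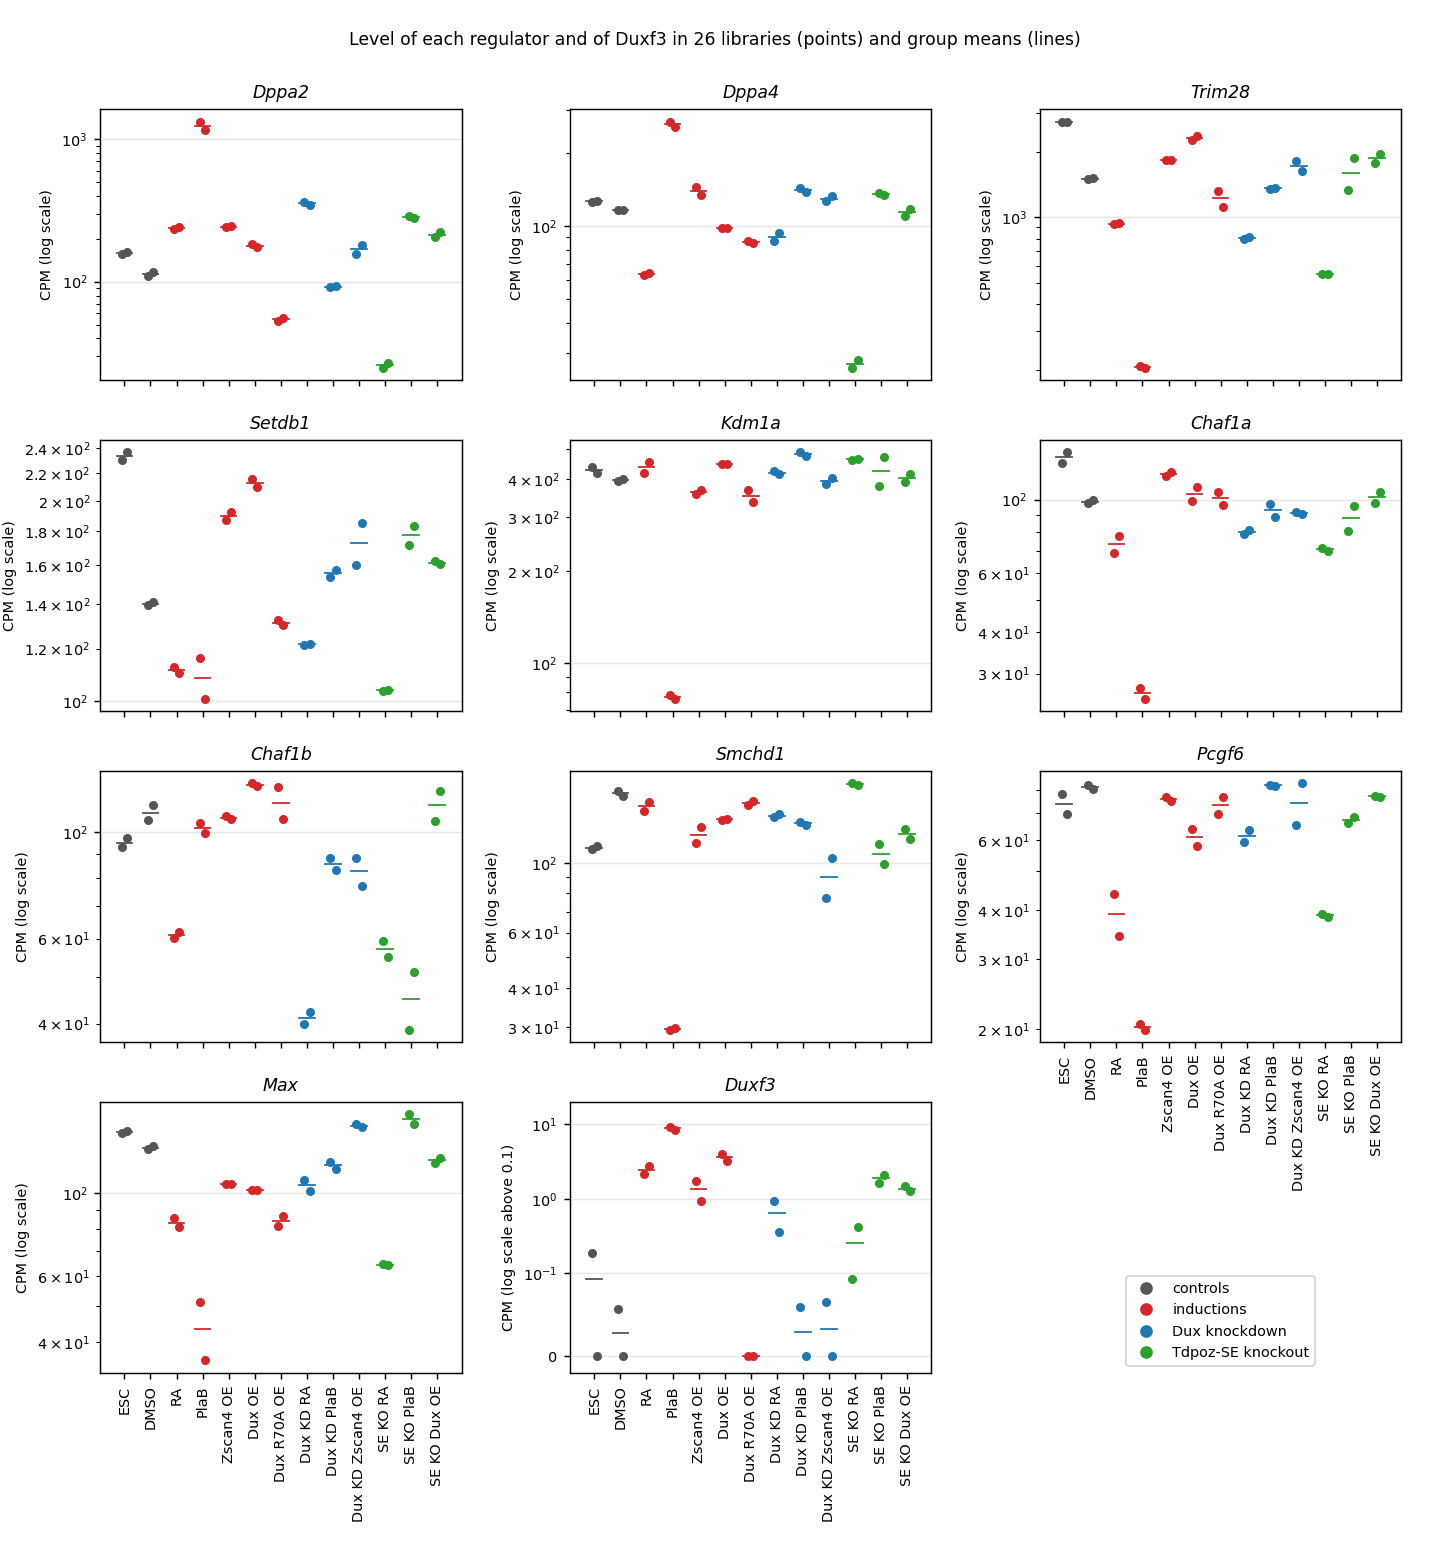
CPM of the 10 regulators and of Duxf3 (vertical axes, log scale, each with its own range) in the 13 groups (horizontal axis). Points are the 2 libraries of a group and lines their mean. Dppa2 and Dppa4 peak in PlaB, where Trim28, Kdm1a, Chaf1a, Smchd1, Pcgf6 and Max have their lowest values, and Dppa2 and Dppa4 are lowest in SE KO RA.

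Per length of exon, Trim28 was the most abundant of the 10 in DMSO at 362.3 FPKM (CPM per kilobase, used only to set genes against each other), followed by Kdm1a at 76.54, Dppa4 at 69.99 and Dppa2 at 46.32 FPKM. Max (36.75), Chaf1b (23.41), Setdb1 (20.45), Pcgf6 (16.19), Chaf1a (11.14) and Smchd1 (8.344 FPKM) came below them. In PlaB the order was another, with Dppa2 at 508.8 and Dppa4 at 158.5 FPKM above Trim28 at 49.55 FPKM.

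Dppa2 (chr16:48303908-48319723, plus strand) varied more than any other member, 48-fold between the highest and the lowest group mean. It stood at 1162 and 1328 CPM in PlaB, at 110.2 and 116.5 CPM in DMSO, and at 24.8 and 27.08 CPM in SE KO RA. Between these ends the means stood in the order Dux KD RA (354.4 CPM), SE KO PlaB (284.2), Zscan4 OE (243.3), RA (237.2), SE KO Dux OE (214.1), Dux OE (178.6), Dux KD Zscan4 OE (169.4), ESC (159.1), DMSO (113.3), Dux KD PlaB (92.23) and Dux R70A OE (54.56 CPM). Here and for the other genes, ranges were checked between neighbours in the order of the means only. For Dppa2, Dux KD Zscan4 OE overlapped both its neighbours, Dux OE and ESC, and no other neighbours overlapped.

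Dppa4, its partner and neighbour on the chromosome (chr16:48283733-48294237, plus strand), varied 9.76-fold. It was highest in PlaB (257.1 and 269.9 CPM) and lowest in SE KO RA (26.01 and 28.01 CPM), the same ends as for Dppa2, but RA held the second lowest level (63.12 and 63.85 CPM). Zscan4 OE (140.1 CPM in the mean) overlapped its neighbours Dux KD PlaB and SE KO PlaB, Dux KD Zscan4 OE overlapped ESC, and DMSO overlapped SE KO Dux OE.

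Trim28 (chr7:12999114-13031035, plus strand) varied 13.4-fold, the widest range of the 8 restraints. Both ESC libraries held 2751 to 2752 CPM, those of DMSO 1499 and 1513 CPM, and those of PlaB 203.8 and 208.3 CPM, the lowest level. SE KO RA was the second lowest at 550.2 and 550.7 CPM. The 2 SE KO PlaB libraries were apart at 1335 and 1864 CPM, a range that takes in DMSO, Dux KD PlaB, Zscan4 OE and Dux KD Zscan4 OE and reaches SE KO Dux OE. SE KO Dux OE and Zscan4 OE overlapped as well. Setdb1 (chr3:95323525-95357202, minus strand) had the narrowest range of all members, 2.25-fold, from 230.1 and 236.4 CPM in ESC to 103.8 and 104 CPM in SE KO RA, where PlaB overlapped its neighbours RA and SE KO RA, and Dux KD Zscan4 OE its neighbours SE KO PlaB and SE KO Dux OE. Of its exon bases 3.63% are shared with Gm37500 and 1.09% with Cers2, both on the opposite strand, and the strand setting of the counts is not given in the sources used here.

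Kdm1a (chr4:136550540-136602723, minus strand) was flat except in 1 group. Its mean lay between 352.7 CPM in Dux R70A OE and 482.6 CPM in Dux KD PlaB in 12 of the 13 groups, 8 pairs of neighbours in that order overlapped, and PlaB stood alone at 76.19 and 78.47 CPM. Smchd1 (chr17:71344489-71475343, minus strand) had a like outlying group, with 29.45 and 29.77 CPM in PlaB and between 90.25 CPM (Dux KD Zscan4 OE) and 178.3 CPM (SE KO RA) elsewhere. In that order Dux R70A OE and RA overlapped, as did SE KO Dux OE and Zscan4 OE, and SE KO PlaB overlapped its neighbours ESC and Dux KD Zscan4 OE.

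The CAF-1 subunits did not share an order. Chaf1a (chr17:56040439-56072289, plus strand) ranged 5.12-fold, from 129.2 and 138.8 CPM in ESC to 25.19 and 27.17 CPM in PlaB. Chaf1b (chr16:93883901-93906115, plus strand) ranged 3.05-fold, stood at 99.61 and 104.1 CPM in PlaB, in the middle of its range, and was lowest in Dux KD RA (39.86 and 42.24 CPM) and SE KO PlaB (38.85 and 51.11 CPM), which overlapped. For Chaf1a, each neighbour overlapped the next from Dux OE through SE KO Dux OE and Dux R70A OE to DMSO, and from Dux KD PlaB through Dux KD Zscan4 OE and SE KO PlaB to Dux KD RA, as did RA and SE KO RA. For Chaf1b, this held from Dux R70A OE through SE KO Dux OE and DMSO to Zscan4 OE, and for Dux KD Zscan4 OE and Dux KD PlaB. A total of 52.5% of the exon bases of Chaf1a are shared with Ubxn6 on the opposite strand, which had 4810 counts over the 26 libraries against 45080 for Chaf1a, so Chaf1a is the member whose count is least certain.

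Across the 13 group means of log2 CPM, Chaf1a and Chaf1b had a Pearson r of 0.155, and of 0.697 without PlaB. The sequences upstream of these 2 genes are shown because the subunits of 1 complex moved apart, chiefly in PlaB. They are the 250 bases before the RefSeq start (GRCm38.p6), at chr17:56040166-56040415 for Chaf1a and chr16:93883651-93883900 for Chaf1b, both on the plus strand, with capitals marking the E-box CACGTG, which MAX dimers bind, and the E2F-type motif GCGGGAA, which reads as its reverse complement in Chaf1a. Both motifs were searched on both strands.
Chaf1a: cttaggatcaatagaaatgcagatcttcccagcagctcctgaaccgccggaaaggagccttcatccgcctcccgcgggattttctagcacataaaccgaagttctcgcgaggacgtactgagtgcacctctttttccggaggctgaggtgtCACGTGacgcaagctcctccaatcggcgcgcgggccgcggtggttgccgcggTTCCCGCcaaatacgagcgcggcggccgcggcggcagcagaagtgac
Chaf1b: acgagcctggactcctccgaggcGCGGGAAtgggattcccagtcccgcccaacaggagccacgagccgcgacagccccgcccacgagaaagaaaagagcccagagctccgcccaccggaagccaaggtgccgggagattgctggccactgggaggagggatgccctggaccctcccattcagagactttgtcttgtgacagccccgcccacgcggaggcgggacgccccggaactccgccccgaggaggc
Over these 250 bases and the first 50 after the start, the E-box was found in the promoters of Chaf1a and Max, 2 of the 8 members in the RefSeq table, and in 7.15% of its 32851 promoters. The E2F-type motif was found in Trim28, Chaf1a and Chaf1b, 3 of 8, and in 4.6% of all. The double homeobox motif was found in none of the 8 and in 0.207% of all. A match is a run of letters only, and Dppa2 and Dppa4 have no entry in that table.

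The PRC1.6 subunits were both lowest in PlaB. Pcgf6 (chr19:47033617-47050906, minus strand) ranged 4.06-fold, with 80.55 and 82.26 CPM in DMSO, 34.33 and 43.74 CPM in RA and 19.97 and 20.59 CPM in PlaB. Max (chr12:76937269-76962201, minus strand) ranged 3.64-fold, from 153.2 and 162.8 CPM in SE KO PlaB to 35.71 and 51.2 CPM in PlaB, with 131 and 133.5 CPM in DMSO. For Pcgf6, Dux KD PlaB and DMSO overlapped, as did each neighbour from Zscan4 OE through Dux KD Zscan4 OE and ESC to Dux R70A OE, Dux KD RA and Dux OE, and RA and SE KO RA. For Max, SE KO PlaB overlapped Dux KD Zscan4 OE, SE KO Dux OE overlapped Dux KD PlaB, and Dux KD RA overlapped its neighbours Zscan4 OE and Dux OE, as did Dux R70A OE and RA.

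The first comparison asks how the regulators stand when PlaB induces the totipotent-like state. Against DMSO, 9 of the 10 members passed the test (adjusted p under 0.05), 2 higher and 7 lower, and 8 of them changed by at least 1 on the log2 scale, which is the line for a called gene. PlaB moved much of the transcriptome, since of the 20953 genes tested 41.7% passed higher, 35.4% passed lower and 58.9% were called. Among genes whose average log2 CPM was 5 or more, the range of most members, 32% passed higher, 58.3% passed lower and 55.5% were called. Counts of members are read against those shares. The activators Dppa2 (log2 fold change 3.46 ± 0.09, 11-fold) and Dppa4 (1.18 ± 0.07) rose. The corepressor Trim28 fell furthest (-2.87 ± 0.11, 7.31-fold), then Smchd1 (-2.49 ± 0.10), the demethylase gene Kdm1a (-2.36 ± 0.09), Pcgf6 (-2.01 ± 0.11), Chaf1a (-1.91 ± 0.09) and Max (-1.61 ± 0.10). Setdb1 fell by 0.37 ± 0.08 on the log2 scale, less than the called line, and Chaf1b did not pass (-0.11 ± 0.10, adjusted p = 0.343). Scaled by library size alone, Setdb1 did not pass either (-0.11, adjusted p = 0.146). The median log2 fold change of the 8 restraints was -1.96, beside 0.224 over all genes tested. No median was taken over the well-expressed genes alone, of which more fell than rose.

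Other markers moved in the same libraries. Of 8 ESC markers 5 fell and 3 rose, with a median log2 fold change of -2.47. Sox2 stood at 26.18 CPM in PlaB against 592.4 CPM in DMSO, Nanog at 74.15 against 911.5 CPM and Esrrb at 92.15 against 1160 CPM, while Dppa5a stood at 2553 against 1408 CPM, so that their sum was 5050 to 5520 CPM against 7041 to 7123 CPM. The sum of 4 trophectoderm markers was 303.7 to 309.4 CPM against 9.212 to 10.67 CPM, of which the keratin gene Krt8 made up 302 and 9.829 CPM in the mean, with Gata3 at 3.648, Cdx2 at 0.5795 and Elf5 at 0.3511 CPM in PlaB. The sum of 5 primitive endoderm markers was 22.72 to 26.5 CPM against 4.716 to 5.673 CPM with Foxa2 at 0, and of 13 S phase genes 8 fell and 2 rose. A single transcript, CT010467.1, took 2.91 and 3.45% of the counts of the PlaB libraries. The part of these in the members' changes was not tested.

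Dux KD was then set against PlaB alone. All 10 members passed, 7 higher and 3 lower, and 7 were called, where of all genes 35.5% passed higher, 38.8% passed lower and 54.9% were called. Dppa2 was 91.46 and 93 CPM in Dux KD PlaB, against 1162 and 1328 CPM in PlaB, and fell by 3.75 ± 0.09 on the log2 scale, 13.5-fold. Dppa4, at 138.2 and 143.1 CPM, fell by 0.91 ± 0.07. Trim28 rose by 2.72 ± 0.11 to 1354 and 1360 CPM and Kdm1a by 2.64 ± 0.09 to 476.3 and 489 CPM. Smchd1 (2.17 ± 0.10), Pcgf6 (2.02 ± 0.11), Chaf1a (1.83 ± 0.09), Max (1.45 ± 0.10) and Setdb1 (0.52 ± 0.08) rose as well, while Chaf1b fell by 0.25 ± 0.10, a change that did not pass without PlaB replicate 1 (-0.21) or either Dux KD PlaB library (-0.29 and -0.20). In the 6 restraints called here, and in Dppa2 and Dppa4, no PlaB library reached the range of the Dux KD PlaB libraries.

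This comparison uses the same PlaB libraries as the one with DMSO, so a further contrast, added after these values were seen, set Dux KD PlaB directly against DMSO. In it 5 of the 10 members passed and none was called (17.7% of all genes passed higher and 17.1% lower, and 11.7% were called). PlaB against DMSO called 58.9% of all genes and DMSO against ESC 16.2%. Across all genes, Dux KD PlaB thus differed from DMSO less than the controls differed from each other. The part of this weak response to PlaB in the levels of Duxf3 and the members was not tested. Dppa2 was lower by 0.30 ± 0.08 and Dppa4 higher by 0.27 ± 0.07 on the log2 scale, Kdm1a was higher by 0.28 ± 0.08, and Chaf1b (-0.35 ± 0.10) and Smchd1 (-0.32 ± 0.09) were lower. Trim28 was at -0.15 ± 0.10 (adjusted p = 0.27), Setdb1 at 0.15 ± 0.08, Chaf1a at -0.08 ± 0.09, Pcgf6 at 0.02 ± 0.10 and Max at -0.16 ± 0.10, and none of these 5 passed. Without either DMSO library, or without Dux KD PlaB replicate 2, 3 members passed in place of 5, and 8 when only these 2 groups were fitted. The trophectoderm markers of Dux KD PlaB summed to 11.79 and 11.84 CPM, nearly all of it Krt8 (11.64 CPM), with Cdx2 and Elf5 at 0.

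SE KO cells with PlaB were compared with PlaB alone in the same way. All 10 members passed, 7 higher and 3 lower, and 8 were called (35.5% of all genes passed higher and 36.5% lower, and 52% were called). Dppa2 fell by 2.13 ± 0.08 to 280.2 and 288.3 CPM and Dppa4 by 0.96 ± 0.07 to 134.2 and 137 CPM. Trim28 (2.96 ± 0.11), Kdm1a (2.46 ± 0.09), Max (1.86 ± 0.10), Smchd1 (1.85 ± 0.10), Chaf1a (1.75 ± 0.09) and Pcgf6 (1.73 ± 0.11) rose, with Setdb1 (0.71 ± 0.08) under the called line. Chaf1b was the exception among the restraints and fell by 1.18 ± 0.10. Against DMSO, in another contrast added after these values were seen, SE KO PlaB held more Dppa2 (1.33 ± 0.08) and less Chaf1b (-1.29 ± 0.10), the 2 called members of 7 that passed (29.6% of all genes passed higher and 26.5% lower, 28.1% were called, and 4 members passed when only these 2 groups were fitted). The mean Duxf3 of SE KO PlaB was at least 11-fold above the floor of DMSO. The SE KO PlaB libraries differed most between replicates, with 2922 and 3744 CPM for the summed S phase genes and 79.53 and 147.1 CPM for the trophectoderm markers (Krt8 108.6 CPM in the mean), and the part of this in the members' values was not tested.

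**Figure D2:**
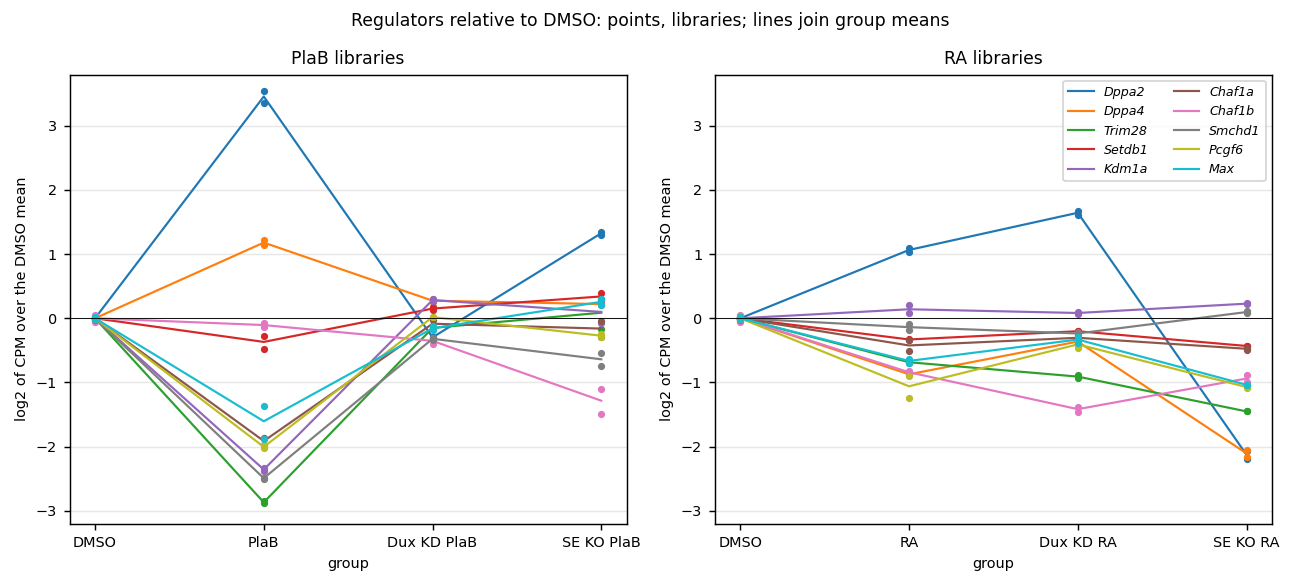
Log2 of each library's CPM over the mean of DMSO (vertical axis) for the 10 regulators in the PlaB groups (left) and the RA groups (right), with lines joining group means. On the left, Dppa2 rises to 3.46 in PlaB and 6 restraints lie between -1.61 and -2.87, while in Dux KD PlaB all 10 lie between -0.35 and 0.28. On the right, Dppa2 is highest in Dux KD RA and lowest in SE KO RA.

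RA gave smaller changes. Against DMSO 8 of the 10 members passed, 1 higher and 7 lower, and 2 were called (32.3% of all genes passed higher and 26.6% lower, and 31% were called). Dppa2 rose by 1.07 ± 0.08, to 233.1 and 241.3 CPM, while Dppa4 fell by 0.87 ± 0.07, so that the activators moved in opposite directions. Pcgf6 fell by 1.06 ± 0.11, and Chaf1b (-0.84 ± 0.10), Trim28 (-0.69 ± 0.10), Max (-0.66 ± 0.10), Chaf1a (-0.42 ± 0.09) and Setdb1 (-0.33 ± 0.08) fell by less. Kdm1a (0.14 ± 0.08, adjusted p = 0.143) and Smchd1 (-0.14 ± 0.09, adjusted p = 0.214) did not pass, and against ESC in place of DMSO Smchd1 was higher in RA (0.44). The median of the 8 restraints was -0.544, beside 0.105 over all genes. In the same libraries all 13 S phase genes fell (2776 to 2904 CPM in sum against 4848 to 4902 CPM). Of 8 ESC markers 6 fell and 1 rose, and the 5 primitive endoderm markers rose to a sum of 64.75 to 67.3 CPM. The part of these in the members' changes was not tested.

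PlaB and RA were also compared directly, in a contrast added after the values were seen, although they differ in dose and time. In PlaB 9 of 10 members passed and 6 were called (37.6% of all genes passed higher and 38.6% lower, and 57.9% were called). Dppa2 (2.39 ± 0.08) and Dppa4 (2.05 ± 0.07) were higher in PlaB, as was Chaf1b (0.74 ± 0.10), Kdm1a (-2.50 ± 0.09), Smchd1 (-2.35 ± 0.10), Trim28 (-2.18 ± 0.11) and Chaf1a (-1.49 ± 0.09) were lower, and Setdb1 did not pass (-0.04 ± 0.08, adjusted p = 0.658).

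Dux KD in RA was set against RA alone. Of the 10, 5 passed, 4 higher and 1 lower, and none was called (18% of all genes passed higher and 19.2% lower, and 10.9% were called). Dppa2 was higher in Dux KD RA (345.7 and 363.2 CPM, 0.58 ± 0.08), the reverse of its fall in PlaB. Dppa4 (0.51 ± 0.07), Pcgf6 (0.65 ± 0.11) and Max (0.33 ± 0.10) were higher too, and Chaf1b lower (-0.57 ± 0.11), with Max no longer past the test without Dux KD RA replicate 1 (0.28) or RA replicate 2 (0.29). Trim28, Setdb1, Kdm1a, Chaf1a and Smchd1 lay between -0.22 and 0.13 and did not pass.

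In SE KO RA the called members were the activators. Of the 10 members 5 passed and 2 were called (21.3% of all genes passed higher and 24.7% lower, and 17.6% were called), and these 2 were Dppa2 (-3.19 ± 0.09, 9.14-fold lower) and Dppa4 (-1.23 ± 0.08). Trim28 fell by 0.77 ± 0.10 and Max by 0.37 ± 0.10, and Smchd1 rose by 0.24 ± 0.09, which did not pass when any 1 of the 4 libraries was left out (0.20 to 0.29). Setdb1, Kdm1a, Chaf1a, Chaf1b and Pcgf6 lay between -0.10 and 0.09 and did not pass. The ESC markers of SE KO RA summed to 3237 and 3286 CPM, the lowest of all groups, and 6 of 8 fell. The other ESC markers stood higher than in RA, Pou5f1 at 461.7 against 327.9 CPM and Dppa5a at 1563 against 678.1 CPM. The 3 neural markers rose to a sum of 102.9 to 105.6 CPM against 57.53 to 59.15 CPM, of which Nes made up 84.53 and 52.16 CPM in the mean. Their part in the fall of Dppa2 and Dppa4 was not tested. The library with the wild-type genotype label (replicate 1) held 24.8 CPM of Dppa2 and its partner 27.08 CPM, both below the 2 RA libraries.

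The differences between these knockdown and knockout effects were tested in the same model. The effect of Dux KD in PlaB minus its effect in RA passed for 9 members and was called for 8 (32.3% of all genes passed higher and 33.6% lower, and 52.2% were called), with -4.33 ± 0.12 for Dppa2, -1.42 ± 0.10 for Dppa4 and 2.94 ± 0.15 for Trim28, and it did not pass for Chaf1b (0.33 ± 0.15, adjusted p = 0.0524). Dux KD in PlaB minus Dux KD in Zscan4 OE passed for 9 and was called for 6 (32.3% of all genes passed higher and 30.4% lower, and 49.2% were called). SE KO in PlaB minus SE KO in RA passed for all 10 and was called for 8 (35.5% of all genes passed higher and 27.6% lower, and 49% were called), with 1.06 ± 0.12 for Dppa2, whose fall was deeper in RA, and 3.72 ± 0.15 for Trim28, which fell in RA and rose in PlaB.

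Zscan4 OE, the third induction, was set against ESC. Of the 10 members 5 passed and none was called (18.9% of all genes passed higher and 19.6% lower, and 11.6% were called). Dppa2 rose by 0.61 ± 0.08, from 157 and 161.2 CPM to 241.8 and 244.8 CPM. Trim28 (-0.58 ± 0.10), Max (-0.46 ± 0.10), Setdb1 (-0.30 ± 0.08) and Kdm1a (-0.24 ± 0.08) fell, Kdm1a not past the test without ESC replicate 1 (-0.21) or either Zscan4 OE library (-0.22 and -0.27). Dppa4 (0.15 ± 0.07), Chaf1a, Chaf1b, Smchd1 and Pcgf6 lay between -0.17 and 0.17 and did not pass. With DMSO as the control in place of ESC, Trim28 (0.29) and Setdb1 (0.44) were higher in Zscan4 OE, the reverse of their direction against ESC, while Dppa2 was at 1.10 and Smchd1 at -0.44. Dux KD in Zscan4 OE again left 5 members past the test and none called (16% of all genes passed higher and 16.7% lower, and 11.1% were called). Dppa2 fell by 0.52 ± 0.08, Smchd1 by 0.45 ± 0.10, Chaf1a by 0.39 ± 0.09 and Chaf1b by 0.37 ± 0.10, and Max rose by 0.52 ± 0.10, with Chaf1b at -0.27 and not past the test without Dux KD Zscan4 OE replicate 2. The Dux KD Zscan4 OE libraries were unlike each other (77.13 and 103.4 CPM for Smchd1, 65.45 and 83.34 CPM for Pcgf6), and CT010467.1 took 1.86% of the counts of one and 4.23% of the other.

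With Dux overexpressed, no member was called. Against ESC 6 of the 10 passed (14.7% of all genes passed higher and 12.8% lower, and 9.51% were called). Chaf1b (0.40 ± 0.10) and Smchd1 (0.30 ± 0.10) rose, and Max (-0.52 ± 0.10), Dppa4 (-0.37 ± 0.07), Chaf1a (-0.37 ± 0.09) and Pcgf6 (-0.28 ± 0.11) fell. Dppa2 was at 174.7 and 182.6 CPM against 157 and 161.2 CPM in ESC, ranges that do not overlap, but its change did not pass (0.17 ± 0.08, adjusted p = 0.132), and Trim28 did not pass either (-0.25 ± 0.10, adjusted p = 0.0609). With DMSO as the control, Dppa2 passed with 0.66, and Smchd1 was lower (-0.28), Trim28 (0.61) and Setdb1 (0.60) higher in Dux OE. Smchd1 did not pass when any 1 of the 4 libraries was left out (0.29 to 0.32), nor did Pcgf6 without ESC replicate 1 (-0.20) or either Dux OE library (-0.36 and -0.21), or with DESeq2 (-0.27), Chaf1a without Dux OE replicate 1 (-0.30), or Chaf1b without ESC replicate 1 (0.37), so that 3 members passed without Dux OE replicate 1 or without ESC replicate 1.

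Several members stood lower in Dux R70A OE than in ESC, whose labels give neither transgene nor doxycycline. Against ESC 9 passed, 2 higher and 7 lower, and 2 were called (21.6% of all genes passed higher and 23% lower, and 16.9% were called). These were Dppa2, down to 53.23 and 55.88 CPM (-1.54 ± 0.08), and Trim28, down to 1117 and 1327 CPM (-1.17 ± 0.10). Setdb1 (-0.83 ± 0.08) and Max (-0.79 ± 0.10) came next. With DMSO as the control, 4 members passed, all lower in Dux R70A OE, with Dppa2 at -1.06, Trim28 at -0.30 and Setdb1, which did not pass, at -0.09. Against Dux OE 7 passed and Dppa2 alone was called (17.3% of all genes passed higher and 21.4% lower, and 13.6% were called), at -1.71 ± 0.08, with Trim28 at -0.92 ± 0.10 and Setdb1 at -0.70 ± 0.08, and 4 passed without either Dux OE library or without Dux R70A OE replicate 2. SE KO in Dux OE moved 6 of the 10 past the test and none past the called line (11.5% of all genes passed higher and 14% lower, and 6.3% were called), Setdb1 (-0.40 ± 0.08) and Trim28 (-0.31 ± 0.10) lower and Pcgf6 (0.34 ± 0.10), Dppa2 (0.26 ± 0.08), Max (0.26 ± 0.10) and Dppa4 (0.22 ± 0.07) higher. Each of the 4 libraries decided this count, which was 2 without Dux OE replicate 1, 1 without Dux OE replicate 2, 3 without SE KO Dux OE replicate 1 and 2 without SE KO Dux OE replicate 2. All 5 fibroblast markers tested rose in SE KO Dux OE, to a sum of 115.6 to 117.1 CPM against 44.54 to 47.25 CPM, and their part was not tested.

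The controls were not equal. DMSO against ESC passed for 5 members and called none (21.2% of all genes passed higher and 22.4% lower, and 16.2% were called), with Trim28 (-0.87 ± 0.10), Setdb1 (-0.73 ± 0.08), Dppa2 (-0.49 ± 0.08) and Chaf1a (-0.44 ± 0.09) lower in DMSO and Smchd1 (0.58 ± 0.10) higher. For Trim28 and Setdb1 this difference between controls stands beside falls of 1.17 and 0.83 in the R70A group against ESC.

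**Figure D3:**
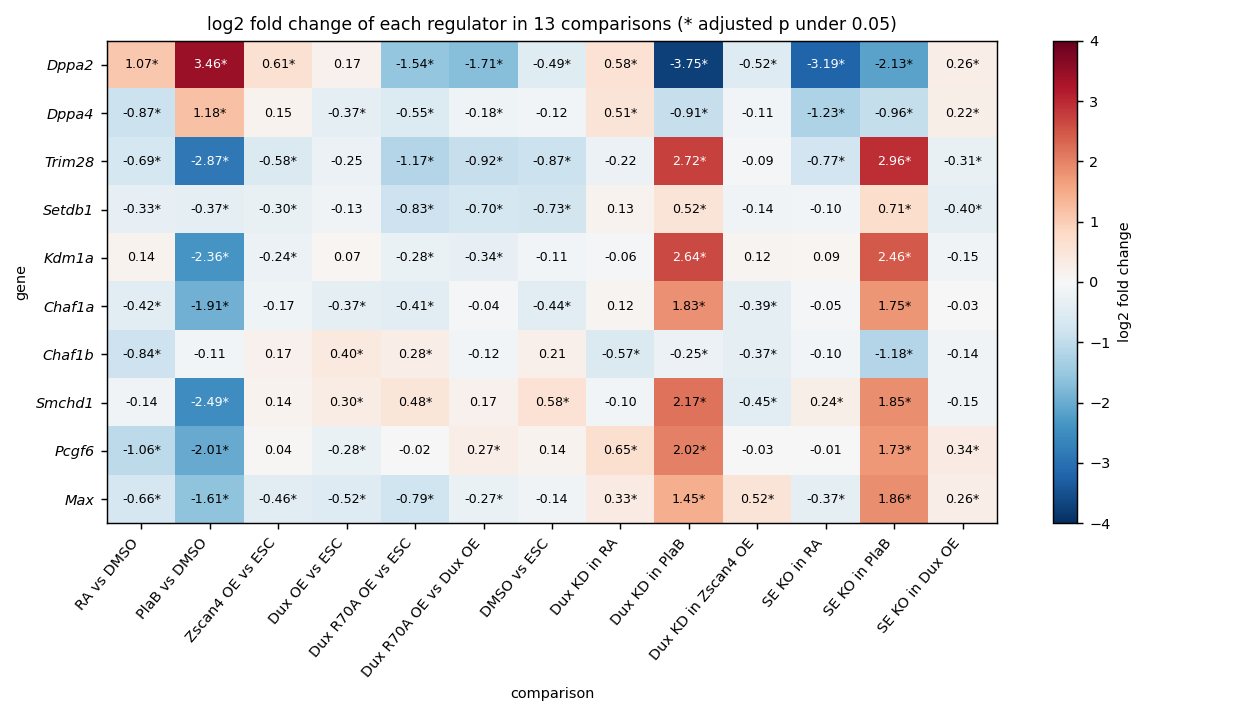
Log2 fold changes (colour scale and printed values) of the 10 regulators (vertical axis) in 13 comparisons (horizontal axis), first-named group over second, or with over without the knockdown or knockout. Stars mark an adjusted p under 0.05. The strongest colours lie in the 3 PlaB columns and in Dppa2 in SE KO RA.

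The partners of these factors were read from lists of 57 further genes, all of them tested. In PlaB against DMSO 14 rose and 39 fell, in Dux KD against PlaB 36 rose and 13 fell, and in SE KO against PlaB 39 rose and 13 fell. Over all genes tested 41.7% rose and 35.4% fell in PlaB, 35.5% and 38.8% with Dux KD, and 35.5% and 36.5% with SE KO, and among genes averaging 5 or more in log2 CPM 32% rose and 58.3% fell in PlaB. The partners' median log2 fold changes were -0.91, 0.838 and 0.771, beside 0.224, -0.135 and -0.0675 over all genes tested. Neither for the partners nor for the members, in any comparison, was a median over well-expressed genes taken to set beside theirs. Of the 9 other PRC1.6 subunits 8 fell in PlaB and none rose, of 10 LSD1 and CoREST partners 8 fell and 1 rose, and of 14 partners of H3K9 methylation 11 fell and 3 rose, to be read against the 58.3% that fell among well-expressed genes. All 7 genes of the SUMO pathway, which acts through TRIM28, rose in PlaB, with a median of 0.57. The deepest falls were those of Rcor2, the CoREST scaffold used in ESCs (135.2 ± 3.3 to 4.683 ± 0.115 CPM, SD, n = 2, -4.85 ± 0.12), and Ehmt2, the H3K9 methyltransferase G9a (-3.92 ± 0.12). Zfp809, a KRAB zinc finger protein that recruits TRIM28, rose by 2.57 ± 0.12 in PlaB and 1.87 ± 0.12 in RA.

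In Dux KD PlaB, Rcor2 stood at 112.1 ± 1.82 CPM (4.58 ± 0.12 over PlaB). Suv39h2, another H3K9 methyltransferase, was higher than in PlaB by 3.70 ± 0.16. Asf1b, a histone chaperone that works with CAF-1, was lower by 2.08 ± 0.10. In SE KO PlaB, Rcor2 (4.57 ± 0.12) and the PRC1 subunit Ring1 (3.71 ± 0.26, from 0.7416 CPM) were higher and Asf1b lower (-2.06 ± 0.10). A share among well-expressed genes alone was taken for PlaB against DMSO and not for RA, Dux KD or SE KO. In RA 7 of the 57 rose and 30 fell, where 32.3% of all genes rose and 26.6% fell. Among those that fell were Rif1, a restraint of the 2-cell programme (616.8 ± 3.35 to 168.9 ± 15.1 CPM, -1.87 ± 0.15), and Pcna, the replication clamp that holds CAF-1 at forks (-1.48 ± 0.07).

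Nelfa, a subunit of the NELF pausing complex known as a maternal activator of Dux, was also read. It rose in Dux OE, from 103.4 ± 1.19 CPM in ESC to 480.2 ± 3.65 CPM (SD, n = 2, log2 fold change 2.22 ± 0.09), where Dppa2 did not pass, and it rose by 2.29 ± 0.09 in PlaB. With the R70A mutant in place of Dux it was lower (-2.73 ± 0.09), and lower with Dux KD in PlaB (-2.47 ± 0.09), with SE KO in PlaB (-1.67 ± 0.09) and with SE KO in Dux OE (-1.08 ± 0.08). Trp53, which activates Dux after DNA damage, was called in 1 of the 13 comparisons in the plot of log2 fold changes, SE KO in RA, from 267.7 ± 12 to 83.37 ± 7 CPM (-1.68 ± 0.10).

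Several partners were named in further comparisons. Mphosph8, a HUSH subunit that reads methylated H3K9, was higher in Zscan4 OE (1.13 ± 0.14) and in DMSO (1.24 ± 0.14) than in ESC, and the PRC1.6 subunit gene Yaf2 was higher in DMSO (1.43 ± 0.14). Rcor2 (-1.33 ± 0.09) and the histone chaperone gene Asf1a (-1.16 ± 0.13) stood below their ESC level in the R70A group. Zfp809 rose in Dux OE (1.13 ± 0.12) and fell with SE KO in RA (-1.37 ± 0.11). Wdr5, which occurs in PRC1.6 and in H3K4 methyltransferases, rose with Dux KD in Zscan4 OE (1.05 ± 0.09).

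Across the 13 group means of log2 CPM, Dppa2 was the member most like Duxf3, with a Pearson r of 0.705 and a Spearman rho of 0.742. These are descriptions over 13 points that share libraries, depth and controls, and 5 of the points have Duxf3 at the floor. Without the 3 groups with a Dux or Dux R70A transgene the r was 0.715 over 10 groups. Without PlaB as well it was 0.509. Every group with the knockdown, whose target is Duxf3, stays in each of these values. No r was taken without the knockdown groups, so their part in the likeness of Dppa2 to Duxf3 was not tested. Dppa4 had an r of 0.234. By Pearson r all 8 restraints had negative values, from -0.612 for Pcgf6, -0.521 for Chaf1a, -0.49 for Smchd1, -0.489 for Kdm1a, -0.442 for Max and -0.364 for Trim28 to -0.102 for Setdb1 and -0.0666 for Chaf1b, but by Spearman rho Kdm1a was at 0.0495, Trim28 at -0.033 and Setdb1 at -0.00549. Without PlaB, 3 of them were above 0 (Kdm1a 0.141, Setdb1 0.121 and Trim28 0.0731), Pcgf6 was at -0.383 and Dppa2 at 0.567.

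Dux OE and Dux KD RA stood apart from this order, but in both Dux itself was manipulated. Duxf3 reads in Dux OE may come from the transgene, which was not tested, and the Dux R70A OE libraries with the mutant transgene held none. In Dux KD RA Duxf3 is the knockdown target. These groups therefore cannot show whether Duxf3 follows Dppa2. Nor can the remaining groups with the knockdown, where Duxf3 was at the floor. Dux OE held the second highest Duxf3 with Dppa2 in the middle of its range, and Dux KD RA held the second highest Dppa2 (345.7 and 363.2 CPM) with 0.3535 and 0.919 CPM of Duxf3, below both RA libraries. Taken as a difference within a library, log2 Dppa2 minus the mean log2 level of the 8 restraints was 4.47 and 4.40 in PlaB, -0.77 and -0.70 in DMSO, 0.80 and 0.86 in RA, -0.99 and -0.93 in Dux KD PlaB, and -2.30 and -2.16 in SE KO RA. Its second highest values, 1.42 and 1.33, were those of Dux KD RA. It was -0.12 and -0.19 in Dux OE against -0.44 and -0.40 in ESC.

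**Figure D4:**
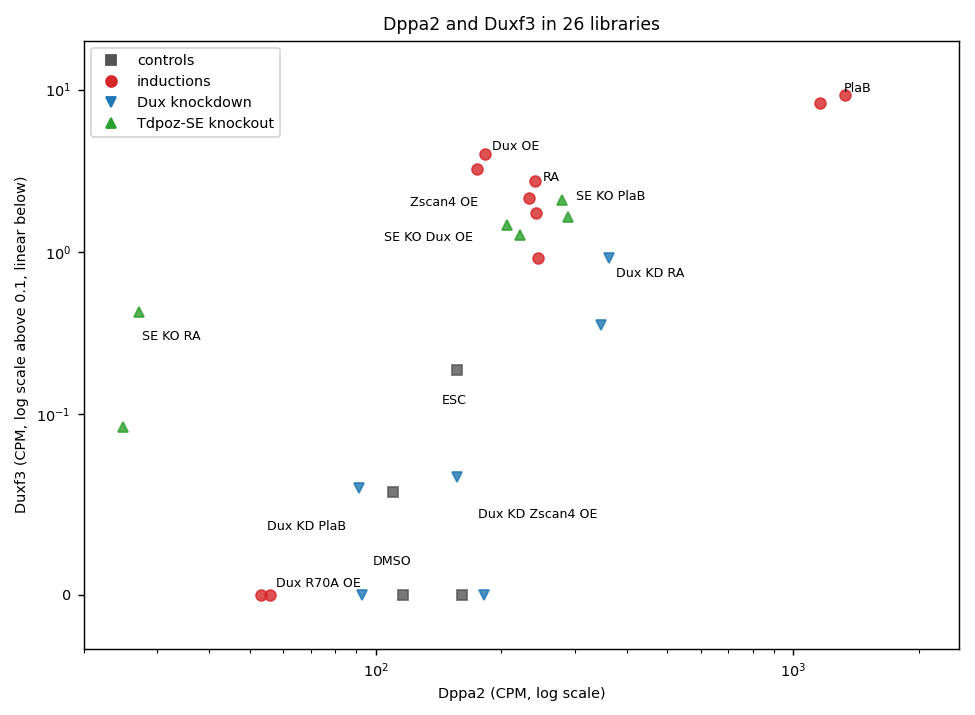
Level of Dppa2 (horizontal axis, CPM, log scale) against Duxf3 (vertical axis, CPM, log scale above 0.1 and linear below) in the 26 libraries. The PlaB libraries stand apart at the upper right with 1162 and 1328 CPM of Dppa2. Dux KD RA lies to the right of RA with less Duxf3, and SE KO RA at the far left.

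Among 13360 genes averaging 1 or more in log2 CPM, those whose 13 group means were most like Dppa2 were Gm9788 (Pearson r 0.98) and Ufd1 (0.96), a subunit of the VCP segregase. For Dppa4 they were Mitd1 (0.97) and Ttc33 (0.968), and for Duxf3 the unnamed gene models Gm48931 (0.983) and Gm6489 (0.978). Between the 2 activators themselves the r was 0.736 over the 13 groups and 0.614 without PlaB, between Trim28 and Setdb1 0.845 and 0.942, between the CAF-1 subunits 0.155 and 0.697, and between Pcgf6 and Max 0.871 and 0.716.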

How the data were processed

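Poly(A) libraries of 26 samples in 13 groups of 2 were compared through the raw gene counts the authors deposited. The submitters' processing notes name FastQC, Trimmomatic, STAR, featureCounts, DESeq2 and mm10, with versions not given in the sources used here. The strand setting is likewise not given, so reads of overlapping antisense genes may be shared.

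From the counts, genes were filtered with filterByExpr in edgeR 4.0.16 (R 4.3.3), which left 20953 of 55291, scaled by TMM, and fitted in 1 quasi-likelihood model of all 13 groups with Benjamini-Hochberg adjustment over the genes tested. A gene passed at an adjusted p under 0.05 and was called with a log2 fold change of at least 1 as well. Errors are standard errors of log2 fold changes (SE) unless marked SD. CPM uses the TMM-scaled library size, and FPKM divides it by exon length in kilobases. A fold against a group at 3 counts or fewer in each library is the mean of the other group over 3 counts per library. This bound allows only for counting error in the low group. It does not cover the spread of the other group, so a single library can lie under it. With 2 against 2 libraries an exact permutation test cannot go below p = 0.333, so none was used. The study calls the replicates of SE KO Dux OE against Dux OE and of SE KO in RA biological. For the other groups this was not found in the sources used here, and p-values there measure the spread between libraries, which may be technical.

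The members, partner lists and marker lists were chosen with earlier results of these data known. Genes named beyond the members were at most the 2 largest rises and 2 largest falls among called partners in a comparison, and the 2 genes with the highest Pearson r to Dppa2, Dppa4 and Duxf3. Alternatives were RLE or no normalization factors, no low-count filter, DESeq2 1.42.0, only the groups compared, a replicate block, the other control and each library left out. On simulated counts for PlaB against DMSO, with 200 of 20953 genes changed, edgeR recovered 85.5% of the 200, with 9 false calls. In the data 41.7% of genes passed higher and 35.4% lower in this comparison. The simulation therefore says nothing of the scaling under so broad a change.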

Additional observations from a re-analysis of the deposited data

Results flagged for a closer look

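Differences between the effects of 1 knockdown or knockout under 2 inductions, tested in the edgeR model, were listed where the adjusted p was under 0.05 and the difference at least 1 on the log2 scale. The effect of Dux KD in PlaB minus its effect in RA was -4.33 for Dppa2, -1.42 for Dppa4, 2.94 for Trim28, 2.70 for Kdm1a, 2.27 for Smchd1, 1.71 for Chaf1a, 1.37 for Pcgf6 and 1.12 for Max. Against the effect of Dux KD in Zscan4 OE, the PlaB effect differed by -3.23 for Dppa2, 2.81 for Trim28, 2.62 for Smchd1, 2.52 for Kdm1a, 2.22 for Chaf1a and 2.06 for Pcgf6. The effect of SE KO in PlaB minus that in RA was 3.72 for Trim28, 2.37 for Kdm1a, 2.24 for Max, 1.80 for Chaf1a, 1.75 for Pcgf6, 1.62 for Smchd1, 1.06 for Dppa2 and -1.08 for Chaf1b. The 3 differences share the PlaB libraries, or the RA libraries, so they are not independent of each other. Groups of 2 libraries are too small for a search for a sample far from its group.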

How the results depend on the processing

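Of 2134 values of single genes under the alternatives, 1958 kept their direction and their side of the threshold or passed in neither setting. A further 116 no longer passed, 48 passed newly, and 12 turned their sign with a pass in at least 1 of the settings. Among the 1958, 39 that passed in neither setting also turned their sign. The number of members that passed in PlaB against DMSO, in RA against DMSO, with Dux KD or SE KO in PlaB or RA, in PlaB against RA and in the 3 differences of effects stayed within 1.5 times under every alternative run. The control decided 11 of the 12 turned signs with a pass in at least 1 setting. With DMSO in place of ESC, Dux OE gave 0.61 for Trim28, 0.60 for Setdb1, 0.08 for Chaf1a and -0.28 for Smchd1, Zscan4 OE gave 0.29 for Trim28, 0.44 for Setdb1, 0.27 for Chaf1a and -0.44 for Smchd1, and Dux R70A OE gave 0.03 for Chaf1a and -0.10 for Smchd1, with 4 members past the test in place of 9. With ESC in place of DMSO, RA gave 0.44 for Smchd1. By library size alone, Dppa4 in Dux R70A OE against Dux OE was at 0.01.

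With only the compared groups fitted, all 10 members passed in DMSO against ESC and in Dux OE against ESC, 9 in Zscan4 OE against ESC, 8 in Dux KD PlaB against DMSO and 4 in SE KO PlaB against DMSO. With 1 library left out, between 3 and 5 members passed in Dux OE against ESC, 4 and 5 in Dux R70A OE against Dux OE, 1 and 3 in SE KO Dux OE against Dux OE, and 3 and 4 in Dux KD PlaB against DMSO. A group left with 1 library is assumed to vary like the others. The cause of these changes was not tested.

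Same-numbered libraries did not deviate together (r from -0.0473 to 0.0237), so replicate numbers do not pair them. With the replicate number as a block, 5 members passed in Dux OE against ESC and 5 in Dux R70A OE against Dux OE, in place of 6 and 7, and 10 still passed with Dux KD in PlaB. The median log2 fold change of all genes in PlaB against DMSO was 0.224 with TMM, 0.376 with RLE and 0.481 by library size alone. Duxf3, at 3 counts or fewer in 5 groups, is limited by depth, and the members are not.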
